A study of Mus musculus with 16 samples.

Results

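The effect of p53 siRNA was measured in MEC1 cells, by comparing the 2 libraries of cells given p53 siRNA with the 2 libraries of cells given Control siRNA, both without TGF-beta. These 4 libraries were chosen by their sample titles out of 16, and all genes of the table were considered: 15494 of 46348 passed the filter on low counts and were tested. MEC1 is an established mouse epicardial cell line, and poly(A)-enriched RNA was sequenced. The other 12 libraries hold the same comparison under 3 further conditions: with TGF-beta, with PRMT1 siRNA in both arms, and with PRMT1 siRNA and TGF-beta in both arms. The title of the study places p53 downstream of PRMT1 and Mdm4 in epicardial invasion and fate, so this comparison asks what less p53 does to the RNA of cells without TGF-beta. The siRNA sequences and amounts and the time after transfection are not given in the sources used here.

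The protein p53, encoded by Trp53, is a transcription factor that binds DNA as a tetramer and activates genes of cell cycle arrest, cell death, DNA repair and metabolism. Its level is held low by the ubiquitin ligase Mdm2, itself a p53 target, together with the related inhibitor Mdm4. Through the CDK inhibitor p21 (Cdkn1a), p53 is also known to lower genes of G2 and mitosis indirectly, by way of the DREAM repressor complex, which acts on promoter motifs such as TTTGAA. The epicardium is the mesothelial sheet around the heart, whose cells can become fibroblasts and smooth muscle cells.

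p53 siRNA lowered Trp53 to 40.2% of control, and the clearest fall among its targets was that of Cdkn1a, to 32.5%. In all, 182 genes rose and 200 fell, most by less than 2-fold. Those that fell included p53 targets of arrest, death, metabolism and signalling, cyclin D1, 14 of 31 genes of G2 and mitosis, serine and amino acid supply genes, Grem1 and several inflammatory genes. Those that rose included secreted matrix genes such as Lum, Dcn and Postn, and the growth factor genes Igf1 and Igf2 with the neighbouring noncoding RNA H19.

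Promoter sequences of the genes that carry these results are shown first. They came from RefSeq (GRCm38.p6) and run from 250 bases before to 50 after a RefSeq start site, which can lie inside the deposited gene. 10316 of the tested genes had one. A p53 response element was searched for on both strands by its consensus: 2 units of 10 bases, apart by at most 1 base, each with its 4 central bases intact and with at most 2 mismatches over the 12 outer places. It was found in 34 of 10316 promoters (0.33%), in 5 of the 151 promoters of genes that fell (3.31%), and in none of the 123 promoters of genes that rose. The 5 were Cdkn1a, Ckap2, Gtse1, Kif23 and Sphk1. Of 61 promoters of p53 target genes, 5 held it (8.2%), among them Bax and Rps27l, which were not called. Each window below is written 5′ to 3′ on the strand of its gene, with the element in capitals, so that its letters can be read beside the value of its gene. Kif23 was chosen after its values were seen. In Bax the end of the first unit, the spacer and the start of the second unit also spell TTTGAA, so the motifs overlap there.
Cdkn1a, chr17:29090868-29090978, plus strand: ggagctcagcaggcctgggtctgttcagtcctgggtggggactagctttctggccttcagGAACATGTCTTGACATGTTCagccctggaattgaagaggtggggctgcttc
Gtse1, chr15:85859885-85859964, plus strand: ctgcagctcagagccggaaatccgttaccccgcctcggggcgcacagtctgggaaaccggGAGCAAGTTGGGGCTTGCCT
Ckap2, chr8:22185943-22186069, minus strand: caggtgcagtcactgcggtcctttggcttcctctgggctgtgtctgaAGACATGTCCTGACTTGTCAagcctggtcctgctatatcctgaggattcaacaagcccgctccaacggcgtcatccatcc
Kif23, chr9:61946966-61947049, minus strand: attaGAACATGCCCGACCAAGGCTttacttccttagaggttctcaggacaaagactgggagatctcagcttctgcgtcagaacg
Rps27l, chr9:66946236-66946375, plus strand: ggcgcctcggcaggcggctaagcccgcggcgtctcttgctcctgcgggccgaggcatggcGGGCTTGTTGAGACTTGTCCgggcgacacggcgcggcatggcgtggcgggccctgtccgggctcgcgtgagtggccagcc
Bax, chr7:45467019-45467148, minus strand: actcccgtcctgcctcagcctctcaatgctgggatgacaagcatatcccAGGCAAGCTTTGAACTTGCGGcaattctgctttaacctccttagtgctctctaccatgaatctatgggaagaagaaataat
In Cdkn1a the element lies 51 to 32 bases before the RefSeq start site and has 1 mismatch. In Gtse1 it begins 1 base before that site and has 1 mismatch, and in Kif23 it lies 246 to 227 bases before and has 2. The deposited genes Gtse1 and Rps27l start further upstream, at 85859707 and 66946086, so their elements lie within the deposited genes. A match is a description of the letters in this window only.

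The hexamer TTTGAA, or TTCAAA on the other strand, was present in 17 of 25 promoters of tested G2 and mitosis genes (68.0%), against 14.2% of all 10316. It was present in 25.2% of promoters of genes that fell and in 14.6% of those of genes that rose. Of the 10 promoters of G2 and mitosis genes called lower, 6 held it, no larger a share than in all 25. Promoters of G2 and mitosis genes that were not called, such as Cdc20 and Mki67, held it as well. By the route given above p53 lowers these genes, whereas here they were lower in cells with less Trp53 RNA. Whether that route or the hexamer bears on the fall was not tested. Prc1, which bundles spindle microtubules, and Kif2c, a kinesin that takes microtubules apart, are shown as examples chosen after their values were seen, with the hexamer in capitals.
Prc1, chr7:80294386-80294451, plus strand: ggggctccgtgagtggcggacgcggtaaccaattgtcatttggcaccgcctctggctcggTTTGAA
Kif2c, chr4:117178810-117178935, minus strand: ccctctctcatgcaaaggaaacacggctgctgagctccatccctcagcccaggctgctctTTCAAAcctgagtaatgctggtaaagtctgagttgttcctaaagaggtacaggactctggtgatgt
Both genes fell with p53 siRNA, as given among the mitosis genes.

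The 4 libraries held 20605046 to 24384455 counts each, and 19617874 to 30759317 over the series. Replicates differed by a root mean square of 0.426 (control) and 0.394 (p53 siRNA) on the log2 scale. Across the series 1 library stood apart, replicate 2 of p53 siRNA with TGF-beta (0.805 against 0.341 to 0.426 elsewhere, and 5.75% of counts in the ribosomal gene Rn18s-rs5). It is not among the 4 compared, but it widens the spread that all 16 libraries share. The count without it (15 libraries) is therefore given beside that of each gene list. That fit leaves 1 library of p53 siRNA with TGF-beta. Where that group is compared, its calls are given only in following the genes called here. No conclusion is drawn from them. Rn18s-rs5 took 1.55% and 2.29% of counts in control and 2.74% and 0.575% in p53 siRNA libraries. The 10 epicardial markers summed to 2220 and 2283 CPM in control and 2527 and 2427 CPM in p53 siRNA libraries. Wt1, Upk3b and Lrrn4 were high, Gata5 was at 0 and Aldh1a2 was low (0.796, 0.339, 1.04 and 0.84 CPM in the same order). Tbx18, Upk1b and Msln were lower in both p53 siRNA libraries, unlike the sum. Haematopoietic markers summed to 2.902 to 4.203 CPM, cardiomyocyte markers to 19.64 to 24.69 CPM, nearly all Tnnt2, and endothelial markers to 10.11 and 10.62 CPM in control and 14.93 and 15.64 CPM in p53 siRNA libraries, with Cdh5, Tie1 and Erg at 0 in all 4.

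Values below are CPM (counts scaled to library size, with TMM factors) in control replicates 1 and 2 and then in p53 siRNA replicates 1 and 2, followed by the log2 change ± SE and the edgeR adjusted p (n = 2 libraries per group). Genes were called at an adjusted p under 0.05 over all 15494. By that rule 1.17% of genes rose, 1.29% fell and 2.47% changed either way. These shares are the background for every list count of this comparison below, with 5.09% higher and 6.56% lower where 15 libraries are named. The libraries of the groups did not overlap for any of the 382 called genes, nor for 51.4% of all tested genes. The median size was 0.611 among genes that rose and 0.547 among those that fell, 32 and 27 of them reached 2-fold, and the median of all tested genes was 0.006. In bulk RNA, fewer cells of a kind and less RNA per cell cannot be told apart. With 15 libraries 820 rose (5.09%) and 1057 fell (6.56%), and in the 16-library fit leaving out any 1 of the 4 libraries left 28 to 60 higher and 27 to 67 lower.

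**Figure D1:**
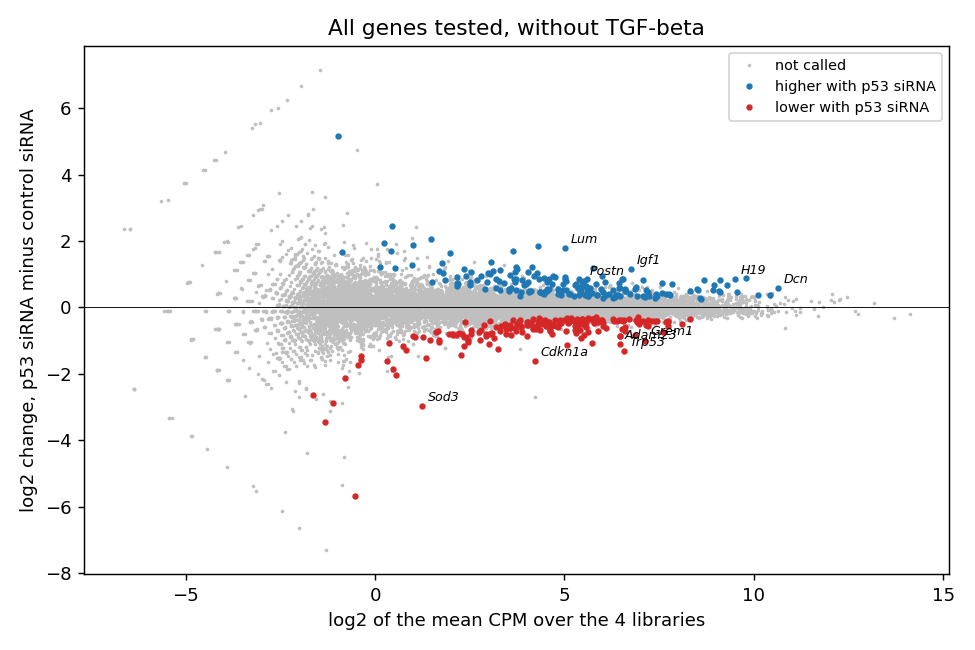
Log2 change by p53 siRNA (vertical axis) against the log2 mean CPM of the 4 libraries (horizontal axis), 1 point per tested gene with a count in these libraries; blue and red points are the 182 genes called higher and 200 called lower, grey points were not called. Lum (1.78) and Igf1 (1.16) are labelled among the genes that rose, and Cdkn1a (-1.62), Trp53 (-1.32) and Sod3 (-2.97) among those that fell.

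Trp53 (chromosome 11, 69580359 to 69591873, mm10) stood at 144 and 128 CPM in control and 55.4 and 54.2 CPM in p53 siRNA libraries (-1.32 ± 0.09, adjusted p = 8.85e-05). Both p53 siRNA libraries lay far below both controls and close to each other. In the other conditions the same siRNA left 44.9% of Trp53 with TGF-beta, 63.1% on PRMT1 siRNA and 47.5% on PRMT1 siRNA with TGF-beta, each relative to the matching group without p53 siRNA.

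Of 19 tested regulators of p53, none was called by edgeR with 16 or 15 libraries or by DESeq2, 1 had an unadjusted p under 0.05, and the median change was 0.03. Mdm4 (chromosome 1) was 137 and 164 CPM in control and 157 and 156 CPM with p53 siRNA (0.06 ± 0.22, adjusted p = 0.956), and Prmt1, the arginine methyltransferase of the study's title, was 173, 143, 145 and 153 CPM (-0.08 ± 0.16, adjusted p = 0.906). For both genes the control libraries differed more from each other than the group means did. The kinases Atm, Atr, Chek1 and Chek2, which signal DNA damage to p53, had adjusted p-values of 0.99, 0.98, 0.52 and 0.98.

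Of the 77 tested p53 target genes (80 in 5 lists), 16 fell and 1 rose, against a background of 1.29% and 1.17% of all tested genes. Their median change was -0.206, and 55 of 77 were below 0, against 7537 of all 15494. With 15 libraries 28 fell and 3 rose, and leaving out any 1 of the 4 libraries from the 16-library fit left 5 to 10 lower.

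Of 12 cell cycle arrest targets 5 fell, also with 15 libraries (median -0.389). Cdkn1a (chromosome 17, 29090979 to 29100722), encoding p21, was 29.0 and 27.1 CPM in control and 9.03 and 9.20 CPM with p53 siRNA (-1.62 ± 0.08, adjusted p = 2.74e-06), the lowest adjusted p of all tested genes. Ccng1 (cyclin G1, chromosome 11, 40748552 to 40755311), an abundant target, fell from 231 and 252 to 144 and 148 CPM (-0.73 ± 0.08, adjusted p = 0.00124). Gtse1 and Ckap2, whose promoters hold the element shown above, encode proteins of the mitotic spindle and are themselves highest in G2 and mitosis. Gtse1 was 33.2, 28.1, 17.8 and 19.8 CPM (-0.70 ± 0.11, adjusted p = 0.00852), and Ckap2 was 80.4, 72.9, 48.3 and 55.3 CPM (-0.56 ± 0.09, adjusted p = 0.00633). Plk2, a polo-like kinase, was 74.3 and 74.7 CPM in control and 51.0 and 56.9 CPM with p53 siRNA (-0.47 ± 0.08, adjusted p = 0.00999). As in every called gene, the groups did not overlap in these 5. Btg2, an antiproliferative gene, changed by -0.18 (adjusted p = 0.25), and Rprm and Sfn stayed under 1 CPM in all 4 libraries.

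Of 19 cell death targets 4 fell (median -0.277), and these were not the best-known effectors. Eda2r, a receptor of the TNF receptor family, was 40.5 and 51.0 CPM in control and 22.0 and 19.7 CPM with p53 siRNA (-1.13 ± 0.19, adjusted p = 0.00999). Phlda3, which restrains AKT, was 62.1, 53.7, 33.3 and 32.5 CPM (-0.82 ± 0.16, adjusted p = 0.0219), and Zmat3, an RNA-binding protein, was 51.5, 53.5, 33.9 and 31.8 CPM (-0.68 ± 0.11, adjusted p = 0.00986). Aen, an apoptosis-enhancing nuclease, fell from 49.3 and 47.5 to 32.5 and 34.6 CPM (-0.53 ± 0.08, adjusted p = 0.00689). The classical effectors were lower by less than their error allowed to call. Bax was 67.2, 57.7, 47.3 and 50.6 CPM (-0.35 ± 0.20, adjusted p = 0.514), Bbc3 (Puma) -0.39 ± 0.23 (adjusted p = 0.523), Fas -0.36 ± 0.14 (adjusted p = 0.274) and Pmaip1 (Noxa) -0.12 ± 0.13 (adjusted p = 0.817). With 15 libraries 11 of the 19 fell.

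Of 21 metabolic and stress targets 3 fell, and the median was -0.025. With 15 libraries 6 fell and 2 rose. Ephx1, an epoxide hydrolase, was 119 and 109 CPM in control and 64.6 and 61.6 CPM with p53 siRNA (-0.85 ± 0.11, adjusted p = 0.00298). Ak1 (adenylate kinase) was 77.4, 68.7, 42.9 and 45.9 CPM (-0.72 ± 0.11, adjusted p = 0.00579), and the thiamine transporter gene Slc19a2 was 31.1, 29.5, 19.2 and 18.6 CPM (-0.68 ± 0.08, adjusted p = 0.00133). All 3 fell in both p53 siRNA libraries by a similar share. The stress-response genes Sesn1 and Sesn2 pointed apart and neither was called (0.26, adjusted p = 0.22, and -0.24, adjusted p = 0.16), and Fdxr, a mitochondrial reductase gene, was 0.43 ± 0.16 (adjusted p = 0.224). Rps27l, whose promoter is shown above, was 132, 110, 82.1 and 86.0 CPM (-0.53 ± 0.21, adjusted p = 0.275). No DNA repair target of 10 was called by edgeR with 16 libraries or by DESeq2, 1 had an unadjusted p under 0.05, and the median was -0.044. With 15 libraries 1 of the 10 fell. Ddb2 and Xpc, which recognise ultraviolet damage, were 0.16 and 0.13 (adjusted p = 0.762 and 0.638).

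Signalling and feedback targets gave 4 falls and the 1 rise among 15 (5 and 1 with 15 libraries). Mdm2 (chromosome 10, 117688888 to 117710758) was 102 and 110 CPM in control and 77.8 and 82.1 CPM with p53 siRNA, 75.5% of control (-0.41 ± 0.09, adjusted p = 0.0363). Sulf2, an extracellular heparan sulphate sulfatase, fell further, from 55.2 and 58.8 to 31.8 and 27.9 CPM (-0.93 ± 0.09, adjusted p = 0.000723). The growth factor gene Tgfa was 4.16, 4.35, 2.50 and 1.84 CPM (-0.98 ± 0.19, adjusted p = 0.023), and the receptor tyrosine kinase gene Epha2 was 87.4, 87.0, 68.8 and 69.2 CPM (-0.34 ± 0.07, adjusted p = 0.0367). Bhlhe40, a transcriptional repressor, rose from 57.6 and 58.8 to 70.2 and 70.5 CPM (0.27 ± 0.06, adjusted p = 0.0386). It was the called p53 target that went the other way.

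**Figure D2:**
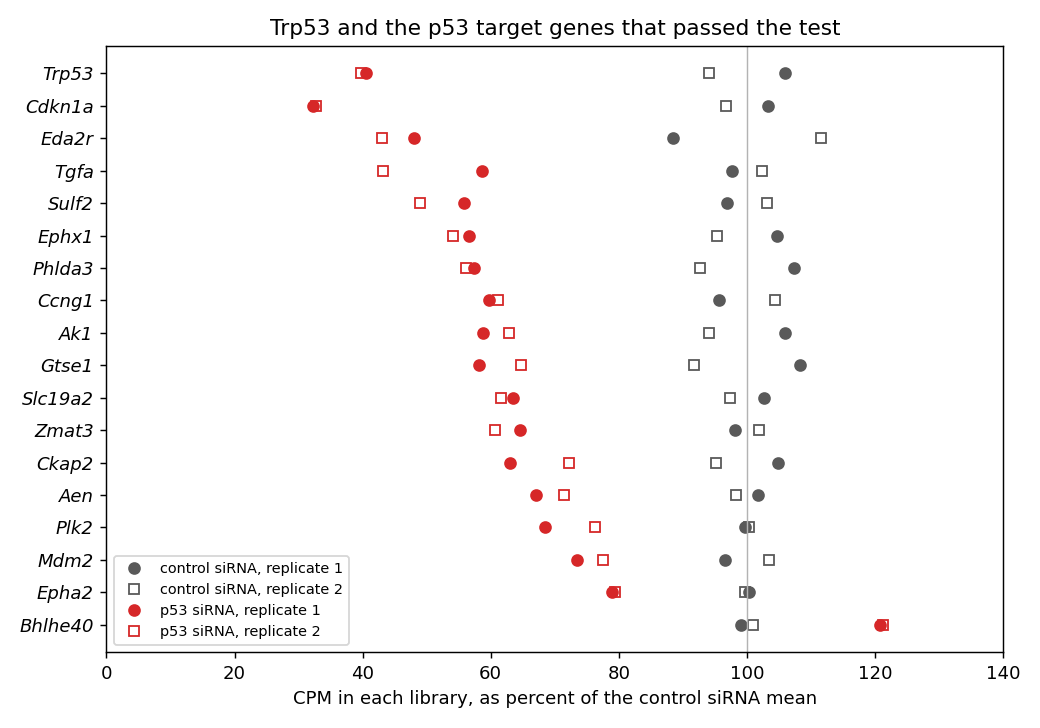
CPM of Trp53 and the 17 called p53 target genes in each of the 4 libraries, as a percent of the mean of the 2 control libraries (horizontal axis); grey marks are control and red marks p53 siRNA libraries, filled for replicate 1 and open for replicate 2. Cdkn1a and Trp53 have the lowest p53 siRNA values, at 32.5% and 40.2% on average, and Bhlhe40 is the gene with values above control.

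Among cyclins and their partners, 1 of 16 tested genes was called, and 1 rose and 2 fell with 15 libraries. Ccnd1 (cyclin D1), which drives entry into the cycle, was 151 and 149 CPM in control and 83.5 and 84.4 CPM with p53 siRNA (-0.84 ± 0.06, adjusted p = 8.85e-05). The replicates differed by little compared with the gap between the groups.

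Of 31 genes of G2 and mitosis 14 fell (45.2%, against 1.29% of all genes), all 31 were below 0, and the median was -0.38. The fall was small for each gene, from -0.34 to -0.63 among those called. Ccna2 (cyclin A2) was 141, 135, 98.2 and 105 CPM (-0.44 ± 0.06, adjusted p = 0.00473). Ccnb1 (cyclin B1) was 102, 95.8, 74.2 and 77.5 CPM (-0.38 ± 0.07, adjusted p = 0.013). The spindle assembly factor gene Tpx2 was 148, 138, 105 and 109 CPM (-0.42 ± 0.06, adjusted p = 0.00633), and the centrosome kinase gene Nek2 was 47.9, 47.3, 31.3 and 34.8 CPM (-0.52 ± 0.09, adjusted p = 0.0123). The groups did not overlap in these 4 genes, as in every called gene. Nor did they in any of the 31 members, against 51.4% of all tested genes without overlap. The other 10, listed after their values were seen, were Cdc25c, Plk1, Aurka, Mad2l1, Ttk, Kif20a, Kif23, Kif2c, Prc1 and Nusap1, which encode a CDK-activating phosphatase, mitotic kinases, a checkpoint protein, kinesins and spindle proteins. Prc1 was 103, 99.7, 76.4 and 79.0 CPM (-0.38 ± 0.07, adjusted p = 0.0194), Kif2c 49.0, 48.5, 35.2 and 38.6 CPM (-0.40 ± 0.08, adjusted p = 0.0193) and Kif23 66.5, 60.2, 43.7 and 48.1 CPM (-0.46 ± 0.09, adjusted p = 0.0169). With 15 libraries 30 of 31 were called lower. In the 16-library fit the count fell to 0 without replicate 1 of control or of p53 siRNA and to 4 without replicate 2 of either, and in the 15-library fit it was 17 to 28.

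Genes of S phase, which make and copy DNA, were lower by less: 27 of 30 were below 0 (median -0.186) and 1 was called. That was Rrm2, a ribonucleotide reductase subunit gene, at 99.4, 92.8, 72.9 and 72.1 CPM (-0.41 ± 0.08, adjusted p = 0.0221). With 15 libraries 10 were called lower.

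In the list of unfolded protein and amino acid stress, 5 of 28 genes fell (17.9%), and the median was -0.249. These 5 supply amino acids and one-carbon units. Slc7a5, a transporter of large neutral amino acids, was 174 and 175 CPM in control and 116 and 123 CPM with p53 siRNA (-0.55 ± 0.08, adjusted p = 0.0039). Psat1 of serine synthesis was 325, 317, 223 and 234 CPM (-0.49 ± 0.08, adjusted p = 0.00986), Mthfd2, a mitochondrial folate enzyme gene, was 115, 107, 65.9 and 76.6 CPM (-0.64 ± 0.12, adjusted p = 0.0165), and Asns (asparagine synthetase) was 175, 160, 112 and 119 CPM (-0.54 ± 0.11, adjusted p = 0.035). The fifth, Pycr1 of proline synthesis, was named after its values were seen (-0.55 ± 0.13, adjusted p = 0.0476). Atf4, the transcription factor that drives many of these genes, was 267, 233, 184 and 205 CPM and not called (-0.36, adjusted p = 0.24), and the endoplasmic reticulum chaperone gene Hspa5 was -0.25 (adjusted p = 0.19). With 15 libraries 18 fell and 1 rose, with DESeq2 9 fell (2.43% of all genes), and without replicate 1 of control or of p53 siRNA the 16-library fit called 0.

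Of 19 chemokine and cytokine genes 4 fell (median -0.272), and with 15 libraries 7 fell and 1 rose. Cxcl1, a neutrophil chemokine, was 43.5 and 38.4 CPM in control and 25.4 and 24.5 CPM with p53 siRNA (-0.72 ± 0.10, adjusted p = 0.0039). Il6 was 5.66, 4.93, 2.63 and 3.32 CPM (-0.83 ± 0.14, adjusted p = 0.0113). Ptgs2, which makes prostaglandin precursors, was 24.3, 26.0, 15.8 and 15.4 CPM (-0.69 ± 0.16, adjusted p = 0.0495), and Csf1, the macrophage growth factor, was 355, 354, 271 and 291 CPM (-0.34 ± 0.08, adjusted p = 0.0461). Ptgs2 and Csf1 passed the threshold narrowly, and Csf1 lost its call without 1 library also in the 15-library fit.

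Of 34 interferon-stimulated genes 1 was called higher, 31 were above 0, and the median was 0.157. Ifit2, an antiviral RNA-binding protein gene, rose from 270 and 324 to 536 and 527 CPM (0.84 ± 0.14, adjusted p = 0.00999). Ifi44l, another interferon-induced gene, was 9.29, 11.7, 23.3 and 21.1 CPM (1.08 ± 0.20, adjusted p = 0.0162). All 12 genes of MHC class I presentation were above 0 (median 0.34), and 1 was called: Nlrc5, the transactivator of MHC class I, at 19.6, 26.4, 41.4 and 41.7 CPM (0.85 ± 0.14, adjusted p = 0.0105). With 15 libraries 5 of each list were higher.

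Of 31 collagen and matrix genes 7 rose (22.6%), while the median stayed at 0.025. Lum (lumican, chromosome 10, 97565501 to 97572703), a small leucine-rich proteoglycan that binds collagen fibrils, rose from 15.1 and 14.0 to 54.7 and 45.3 CPM (1.78 ± 0.21, adjusted p = 0.00133). The related proteoglycan Dcn (decorin), far more abundant, rose from 1309 and 1256 to 1961 and 1861 CPM (0.58 ± 0.13, adjusted p = 0.0464). Postn (periostin), a matricellular protein of activated fibroblasts, was 32.7, 34.0, 60.3 and 56.6 CPM (0.81 ± 0.09, adjusted p = 0.00124), and Col18a1, a basement membrane collagen, was 6.33, 6.58, 12.3 and 11.3 CPM (0.87 ± 0.10, adjusted p = 0.00124). The collagen VI chain genes Col6a1 (1163, 1231, 1579 and 1526 CPM) and Col6a2 (929, 977, 1269 and 1230 CPM) rose together, by 0.38 ± 0.07 and 0.39 ± 0.09 (adjusted p = 0.0212 and 0.0436). The seventh was Thbs2 (0.85 ± 0.19, adjusted p = 0.0423), named after its values were seen. Col1a1, a chain of the main fibrillar collagen, was not called (-0.21, adjusted p = 0.33). Dcn lost its call without 1 library also in the 15-library fit, which called 8 higher and 3 lower, and without any 1 library the 16-library fit called 3 higher.

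**Figure D3:**
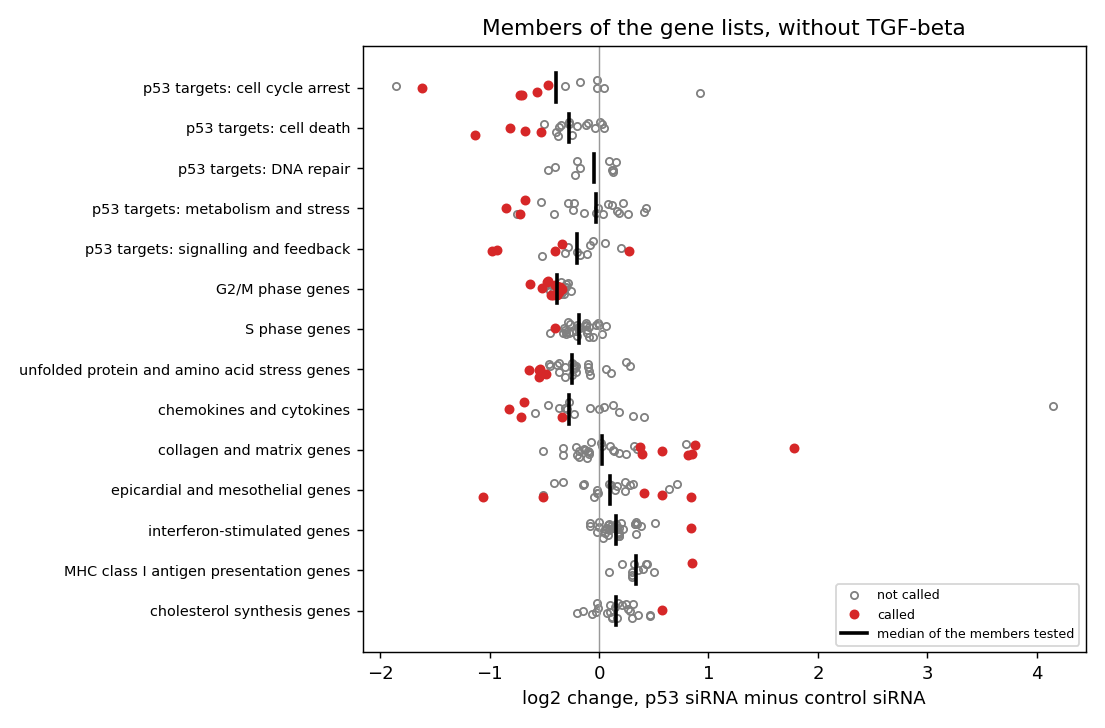
Log2 change by p53 siRNA of every tested member of 14 gene lists (horizontal axis); red points were called, open points were not, and the black bar is the median of the list. The G2/M members lie between -0.63 and 0, and the matrix list spreads to both sides with Lum at 1.78.

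Further genes with large rises follow, by the size of their change or their level. Igf1, which encodes a secreted growth factor, was 63.2 and 71.7 CPM in control and 165 and 136 CPM with p53 siRNA (1.16 ± 0.13, adjusted p = 0.00124). Igf2 (chromosome 7, 142650766 to 142666816) was 610, 642, 1160 and 1157 CPM (0.89 ± 0.08, adjusted p = 0.000361), and H19 (142575529 to 142578143), the imprinted noncoding RNA beside it, was 516, 518, 913 and 945 CPM (0.85 ± 0.12, adjusted p = 0.00353). The imprinted Dlk1 on chromosome 12 was 525, 444, 807 and 746 CPM (0.68 ± 0.15, adjusted p = 0.0358), and its neighbour Meg3 was 62.5, 75.0, 88.3 and 96.7 CPM and not called (0.43 ± 0.14, adjusted p = 0.172). H19 was the called member of 9 tested noncoding RNAs linked to p53 (2 higher with 15 libraries), and the precursors of the miR-34 family did not pass the filter. The monooxygenase gene Fmo2 had the largest rise of the genes above 5 CPM, from 8.14 and 9.0 to 33.5 and 28.9 CPM (1.86 ± 0.13, adjusted p = 0.000361). Mgp (matrix Gla protein) was 5.97, 5.76, 21.3 and 16.6 CPM (1.69 ± 0.25, adjusted p = 0.00477), and Apod (apolipoprotein D) was 1.5, 2.32, 6.35 and 5.6 CPM (1.65 ± 0.33, adjusted p = 0.0259). Angptl7 was 33.2, 32.3, 79.7 and 69.2 CPM (1.19 ± 0.14, adjusted p = 0.00148). Podxl, a surface sialomucin, was 371, 412, 737 and 666 CPM (0.84 ± 0.15, adjusted p = 0.0132).

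Among the genes with the largest falls, Grem1 (chromosome 2, 113746164 to 113758646), a secreted BMP antagonist, was 176 and 195 CPM in control and 90.6 and 95.1 CPM with p53 siRNA (-1.0 ± 0.11, adjusted p = 0.00121). A list of 11 genes held BMP-responsive genes, the ligand gene Bmp4 and antagonist genes, Grem1 among them. In that list 1 gene rose and 1 fell, Grem1 being the fall. Id2 rose from 9.51 and 9.29 to 18.3 and 16.0 CPM (0.87 ± 0.13, adjusted p = 0.00477). Of the 11, 9 were above 0 (median 0.296), Grem1 and Nog being below. Whether BMP signalling changed was not tested. With 15 libraries 4 of the 11 rose and 1 fell. Sod3, the extracellular superoxide dismutase gene, was low and fell further, from 3.63 and 4.79 to 0.408 and 0.640 CPM (-2.97 ± 0.32, adjusted p = 0.00121). Adam23 was 118, 121, 50.9 and 60.9 CPM (-1.10 ± 0.12, adjusted p = 0.0012). Among 24 epicardial and mesothelial genes 3 rose (Podxl, Dcn and Gata4) and 2 fell (median 0.1), and with 15 libraries 6 rose and 3 fell. Anxa8 was 70.8, 72.8, 32.2 and 36.8 CPM (-1.06 ± 0.12, adjusted p = 0.00124), and Msln (mesothelin) was 152, 142, 103 and 103 CPM (-0.51 ± 0.11, adjusted p = 0.0344). The defining factor Wt1 was 247, 257, 309 and 288 CPM and not called (0.24 ± 0.09, adjusted p = 0.261).

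Of 20 contractile genes of smooth muscle 1 fell, 7 were above 0, and the median was -0.159. With 15 libraries 2 rose and 6 fell. Tagln, an actin-binding protein gene, was 122, 107, 53.7 and 73.3 CPM (-0.85 ± 0.19, adjusted p = 0.0411), and Acta2 was 426, 356, 195 and 272 CPM and not called (-0.74 ± 0.19, adjusted p = 0.0696). The p53 siRNA replicates of both genes differed clearly from each other. Mylk, the myosin light chain kinase gene, was taken up after its values were seen because it pointed the other way, at 126, 162, 237 and 221 CPM, and was not called (0.67 ± 0.25, adjusted p = 0.224). Of 16 epithelial junction and keratin genes none was called by edgeR with 16 libraries (2 higher and 2 lower at an unadjusted p under 0.05), 2 rose and 1 fell with 15 libraries, and 1 was higher by DESeq2. Of 23 EMT genes 1 rose (4 rose and 3 fell with 15 libraries): Lef1 was called, at 5.04, 4.21, 9.80 and 6.64 CPM (0.82 ± 0.18, adjusted p = 0.0386), and lost its call without 1 library also in the 15-library fit. Bcl2l11 (Bim), a death-promoting BCL2 relative, was higher, at 39.2, 43.0, 64.5 and 59.0 CPM (0.59 ± 0.10, adjusted p = 0.0115). The endothelial receptor genes Kdr (2.92, 3.77, 5.63 and 5.88 CPM) and Tek (1.15, 0.871, 2.45 and 2.04 CPM) were higher without a call (adjusted p = 0.0562 and 0.077).

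The genes called here were then followed in the 3 other comparisons with p53 siRNA, which share no library with this one. There 2.82%, 0.568% and 0.219% of all tested genes were called higher and 2.39%, 0.297% and 0.232% lower, in the order with TGF-beta, on PRMT1 siRNA, and on PRMT1 siRNA with TGF-beta. With TGF-beta, 130 of the 182 genes that rose (71.4%) and 152 of the 200 that fell (76.0%) moved in the same direction, 51 and 62 of them called, and 9 and 5 were called in the opposite direction. Of genes not called here 46.4% had the same direction. With 15 libraries the shares were 73.1% and 83.0%, against 58.6% of genes not called, with 45 and 64 called the same way and 6 and 5 the opposite way (1.93% of all genes were then higher and 2.33% lower). In that fit p53 siRNA with TGF-beta has 1 library, whose spread is assumed from other groups, so no conclusion is drawn from those calls. On PRMT1 siRNA without TGF-beta the shares were 94.5% and 86.5%, against 51.8% of genes not called, with 37 and 28 called the same way. With 15 libraries 121 and 88 were called the same way and 1 and 4 the opposite way, when 12.2% of all genes were higher and 10.2% lower. On PRMT1 siRNA with TGF-beta they were 75.3% and 59.0%, against 61.1% of genes not called, so the share among genes that fell was not above that of the rest. There 7 and 11 were called the same way and 2 and 3 the opposite way, and with 15 libraries 40 and 43 the same way and 12 and 20 the opposite way, when 5.96% of all genes were higher and 6.69% lower. Genes called either way in these comparisons made up 5.21%, 0.865% and 0.452% of those tested.

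**Figure D4:**
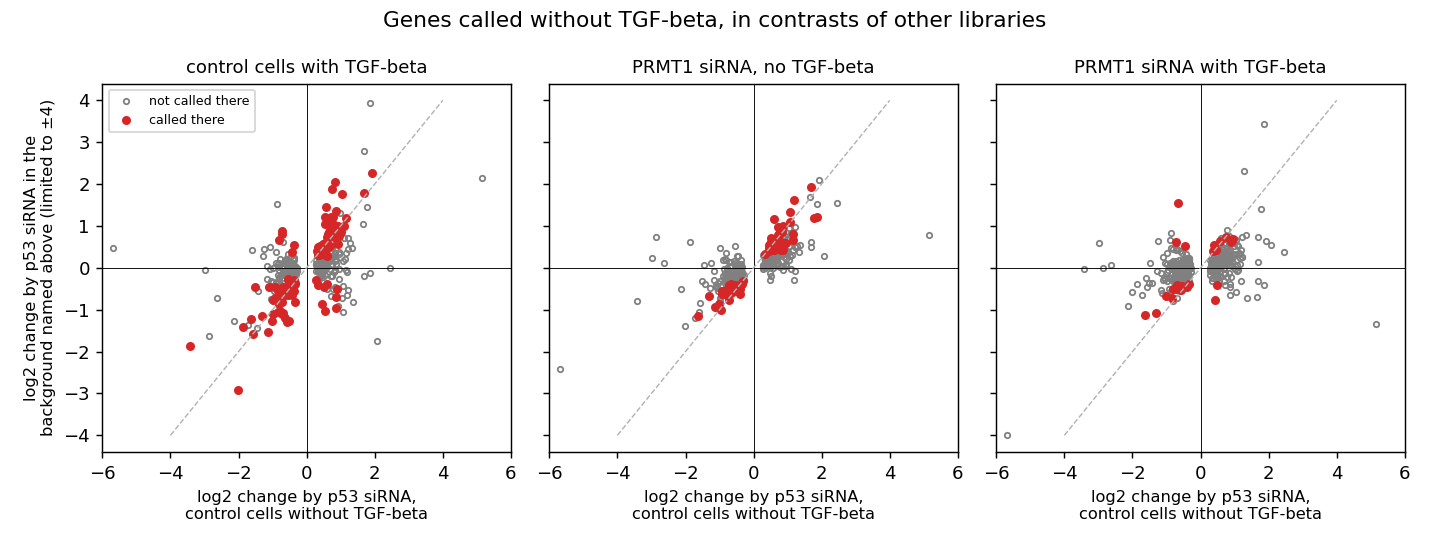
Log2 change by p53 siRNA of the 382 called genes in the 3 other backgrounds (vertical axes, limited to ±4) against the change in control cells without TGF-beta (horizontal axes); red points were also called there, and the dashed line marks equal change. In the PRMT1 siRNA background without TGF-beta 172 of 182 genes that rose are also above 0, with a median of 0.33 against 0.611 here. The genes were chosen by their call here, which favours a smaller change elsewhere. p53 siRNA left 63.1% of Trp53 there and 40.2% here.

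Of the genes called in every comparison most were p53 targets. The 9 genes called lower in all 4 comparisons were Trp53, Cdkn1a, Ccng1, Mdm2, Aen, Epha2, Slc19a2, Serpinb9b and the unnamed 9030617O03Rik, and Sv2a (31.2, 34.4, 49.4 and 48.4 CPM here) was the 1 gene called higher in all 4; Sv2a and the unnamed gene were taken up after their values were seen. Cdkn1a was 42.9% of its reference with TGF-beta, 44.8% on PRMT1 siRNA and 45.5% with both, and Mdm2 68.3%, 64.5% and 72.4%. Of the 77 p53 targets 19, 11 and 9 fell in the 3 comparisons, and 1 rose with TGF-beta. With 15 libraries 32 and 32 fell and 6 and 2 rose in the comparisons on PRMT1 siRNA without and with TGF-beta. No count is given for the comparison with TGF-beta alone, where that fit leaves 1 p53 siRNA library.

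Of the 31 G2 and mitosis genes 1 fell with TGF-beta (median -0.09), and none was called by edgeR on PRMT1 siRNA (median -0.131; 11 lower with 15 libraries, where 10.2% of all genes were). On PRMT1 siRNA with TGF-beta the median was above 0, at 0.109. None of the 31 was called there by edgeR with 16 libraries, and 9 were higher with 15, where 5.96% of all genes were. The difference between the effects with and without TGF-beta was called for none of the 31 by edgeR with 16 libraries. The smallest adjusted p was 0.0559, and 21 had an unadjusted p under 0.05. With 15 libraries p53 siRNA with TGF-beta has 1 library, so no call is given. Ccnd1 fell with TGF-beta as well (-1.07) and was -0.24 (adjusted p = 0.08) on PRMT1 siRNA and 0.08 (adjusted p = 0.62) on PRMT1 siRNA with TGF-beta.

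Over all tested genes the effect with TGF-beta differed from that without in 158 (1.02%) by edgeR with 16 libraries, which include the library that stood apart. H19 was lower in cells with TGF-beta and rose more with p53 siRNA there. Cxcl1 fell without and rose with TGF-beta, and the rises of Igf1, Postn, Nlrc5 and Ifit2 were not seen with it. These genes were chosen by their call without TGF-beta, and the test of the difference uses the same libraries again. The effect on PRMT1 siRNA differed in no gene (0.0%) by edgeR with 16 libraries (1192 with an unadjusted p under 0.05) and in 1486 (9.59%) with 15. Trp53 itself was among the 1486, being lowered less on PRMT1 siRNA (difference 0.68, edgeR adjusted p = 0.0026).

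**Figure D5:**
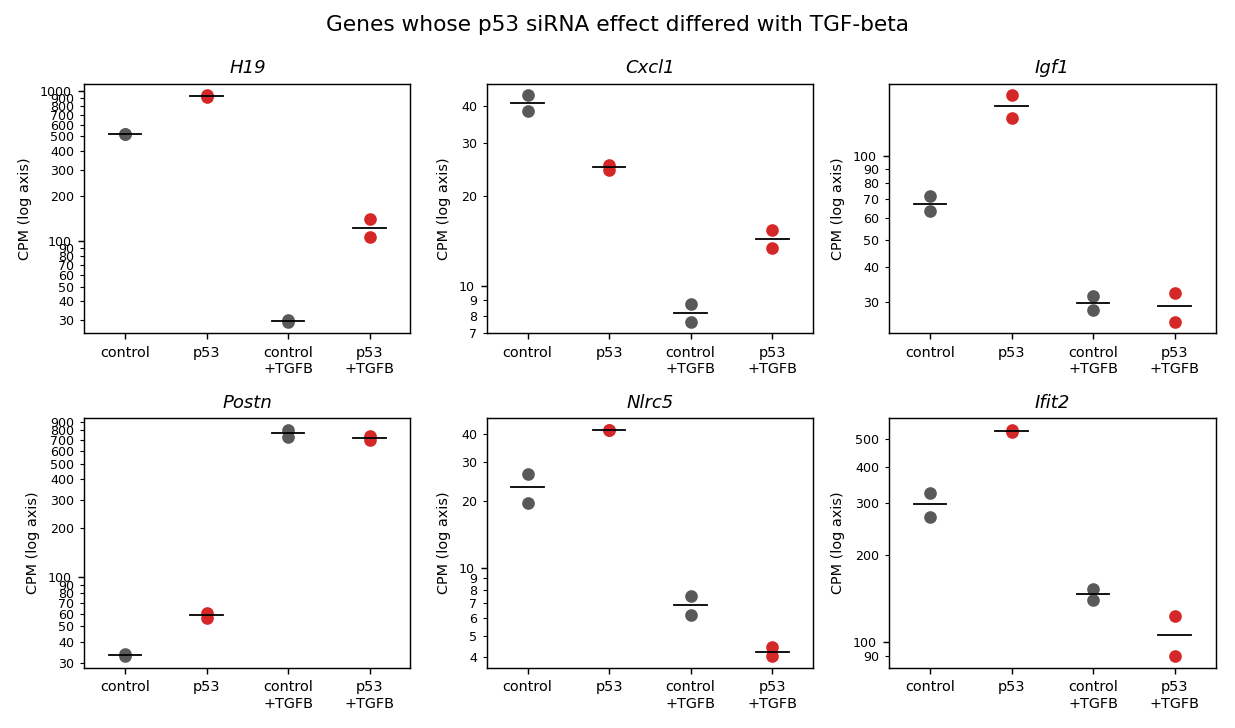
CPM (log axes) of 6 genes in the 2 libraries of control siRNA and p53 siRNA, without and with TGF-beta (+TGFB); points are libraries and bars the group means. H19 was 516 and 518 CPM in control and 30.1 and 29.2 CPM with TGF-beta, and p53 siRNA libraries were above their controls in both.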

How the data were processed

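The authors deposited 1 table of expected counts per gene for the 16 libraries. The submitters' processing notes name TopHat2, Partek and mm10 and no versions. Annotation, strand and counting options are not given in the sources used here, so genes overlapping on opposite strands cannot be told apart. Nonzero values were whole within 0.01 in 60% of cases, and all were rounded before testing. The deposited stop lies 1 past the last base in 35392 of 37103 genes with the same start in GENCODE vM21, so ends are printed 1 lower.

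All 16 libraries entered 1 edgeR 4.0.16 model in R 4.3.3, with 1 mean for each group (quasi-likelihood F test, TMM, filterByExpr). The call threshold was an adjusted p of 0.05 (Benjamini-Hochberg over 15494 genes). CPM are TMM-scaled, and SE comes from the log2 change and F. The design text calls the 2 libraries of a group biological replicates; separate cultures are not stated, so p-values measure the spread between these libraries. The procedure was also run on simulated counts with independent noise, which cannot show how it behaves with the real differences between replicates. Members, the 30 gene lists, the naming rule and the alternatives were chosen with earlier results of these data known. Named were Trp53, all p53 targets, regulators and linked noncoding RNAs, 4 members per other list with the lowest adjusted p, and the largest changes among called genes with at least 5 CPM in the higher group (15 each way by log2, 10 by CPM). Results of some genes the rule allows are not reported here. Marker lists served to check cell identity. DESeq2 1.42.0, RLE factors, no filter, other sets of libraries, a replicate block, length offsets (GENCODE vM21 lengths) and leaving out libraries were alternatives. Promoters were read with Python 3.11.15.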

Additional observations from a re-analysis of the deposited data

Results flagged for a closer look

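For 16 of the named genes that were called without TGF-beta, the effect of p53 siRNA differed between cells with and without TGF-beta by a test of the difference itself (edgeR, the effect with minus the effect without, log2). The test used all 16 libraries, among them the p53 siRNA library with TGF-beta that stood apart. Without it that group has 1 library, and all 16 differences kept their direction. The genes were chosen by their call without TGF-beta, and the difference uses those same 4 libraries. Such a choice favours a smaller effect with TGF-beta, so no conclusion is drawn from the direction most differences share. No cause was tested.

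In 7 genes the rise without TGF-beta was smaller, absent or turned with it: Igf1 (difference -1.20, adjusted p = 0.0124), Postn (-0.91, adjusted p = 0.00794), Col18a1 (-0.77, adjusted p = 0.0302), Adamts16 (-0.91, adjusted p = 0.0234), Ifit2 (-1.30, adjusted p = 0.0121), Nlrc5 (-1.55, adjusted p = 0.0107) and Ndrg1 (-0.74, adjusted p = 0.00639). Postn, at 32.7 and 34.0 CPM in control, was 730 and 808 CPM with TGF-beta and 737 and 697 CPM with both. Nlrc5 was 6.16 and 7.5 CPM with TGF-beta and 4.03 and 4.44 CPM with p53 siRNA added, below its TGF-beta controls. Bhlhe40 also went from a rise to a fall (-0.55, adjusted p = 0.0124), at 177 and 172 CPM with TGF-beta and 144 and 143 CPM with p53 siRNA added.

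In 7 genes the fall without TGF-beta was smaller or not seen with it: Sod3 (difference 2.93, adjusted p = 0.00794), Spp1 (1.72, adjusted p = 0.0101), Pcolce2 (1.06, adjusted p = 0.0225), Kcnk2 (0.89, adjusted p = 0.0239), Mthfd2 (0.81, adjusted p = 0.041), Ak1 (0.72, adjusted p = 0.0484) and Cxcl1 (1.53, adjusted p = 0.00191). Cxcl1 was 7.63 and 8.72 CPM with TGF-beta and 13.4 and 15.4 CPM with p53 siRNA added, so it fell in one setting and rose in the other. Spp1, which encodes osteopontin, was 13.3, 13.4, 5.08 and 6.04 CPM without TGF-beta and 104, 128, 136 and 183 CPM with it.

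H19 was the gene whose rise was larger with TGF-beta (difference 1.21, adjusted p = 0.00794): it went from 30.1 and 29.2 CPM to 107 and 140 CPM.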

How the results depend on the processing

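Counts of called genes depended on the libraries that share the estimate of the spread, while all 89 called named genes kept their direction in every setting tried. Genes higher and lower numbered 281 and 358 with DESeq2, 419 and 307 with the 4 libraries alone, 619 and 612 with the 8 libraries without TGF-beta, 820 and 1057 with 15 libraries, 386 and 475 with length offsets, and 1011 and 1586 with length offsets and 15 libraries; 355 were higher with no filter. p53 targets lower numbered 28 with 15 libraries and 33 with length offsets added. G2/M genes lower numbered 28 with 8 libraries, 30 with 15, 23 with length offsets and 31 with both. Amino acid stress genes lower numbered 9 with DESeq2, 9 with 8 libraries, 18 with 15, 14 with length offsets and 20 with both. Without 1 of the 4 libraries, whose partner is then assumed to vary like the other groups, 28 to 60 genes were higher and 27 to 67 lower, with 5 to 10 p53 targets, 0 to 4 G2/M genes and 0 to 2 amino acid stress genes lower and 3 matrix genes higher; 21 of the 89 kept their call each time. In the 15-library fit, chosen after seeing the data for this step, the same gave 246 to 1172 higher (453 without control 1, 483 without p53 siRNA 2), 275 to 1315 lower (436 and 649), 19 to 28 p53 targets, 17 to 28 G2/M genes (24 and 27) and 6 to 18 amino acid stress genes lower and 6 to 9 matrix genes higher, and 86 of 89 kept their call. Trp53 ran from -1.42 to -1.23. With the replicate number as a block 134 rose and 142 fell, and 3 amino acid stress genes were lower; same-numbered control and p53 siRNA libraries deviated with r = -0.102 across genes, so the numbers were not taken as pairs. With the pairing crossed, chosen after seeing the data, 137 rose, 147 fell and 3 amino acid stress genes were lower. The common coefficient of variation was 0.114 with 16 and 0.0604 with 15 libraries, and median changes ran from -0.031 in the shortest to 0.0567 in the longest of 5 equal groups of genes by length. With 2 libraries per group, a gene not called is not shown to be unchanged.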

Other observations

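Most genes of cholesterol synthesis, hypoxia and lysosomes were above 0, mostly without a call. Of 24 cholesterol genes 1 rose (5 with 15 libraries) and 18 were above 0 (median 0.154): Insig1, which retains the sterol sensor in the endoplasmic reticulum, rose from 33.4 and 35.1 to 50.5 and 51.3 CPM (0.57 ± 0.09, adjusted p = 0.00999). Of 23 hypoxia and glycolysis genes 3 rose (4 with 15 libraries): Ndrg1 from 73.2 and 70.8 to 89.4 and 90.9 CPM (0.32 ± 0.07, adjusted p = 0.0325), the mitophagy gene Bnip3 from 26.2 and 25.1 to 38.1 and 35.1 CPM (0.51 ± 0.11, adjusted p = 0.0423), and the lactate exporter gene Slc16a3 from 11.7 and 9.38 to 20.4 and 17.2 CPM (0.83 ± 0.19, adjusted p = 0.0433). Of 23 autophagy and lysosome genes none was called by edgeR with 16 libraries or by DESeq2 (7 higher at an unadjusted p under 0.05), 18 were above 0, the median was 0.139, and 6 were higher with 15 libraries.

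Of 26 extracellular protease genes 2 fell (7.69%, against 1.29% of all genes). With 15 libraries 4 rose and 9 fell, where 5.09% of all genes rose and 6.56% fell. Plau, the urokinase gene, was 8.63, 8.03, 4.49 and 5.52 CPM (-0.73 ± 0.12, adjusted p = 0.0111), and Mmp3 was 6.72, 6.97, 4.17 and 3.28 CPM (-0.88 ± 0.19, adjusted p = 0.0377). Cyr61, a matricellular target of YAP, was 49.4, 43.3, 30.8 and 31.8 CPM (-0.57 ± 0.10, adjusted p = 0.0144). As in every called gene, the groups did not overlap in these 3.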
